A study of Mus musculus with 13 samples.

Results

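The interferon response genes described here are 37 genes that cells switch on when they sense interferon, 28 of them classed as type I targets and 9 as interferon-gamma targets. They were listed by name, and a listed gene counted as a member on a platform where at least 1 probe annotated to it was detected (detection p-value below 0.05) on at least 1 array. By that rule 32 of the 37 were members among 12990 detected genes on the platform with 9 arrays, and 28 of the 37 among 9714 genes on the platform with 4 arrays.

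The tissue was the 4T1 mammary carcinoma, a mouse breast cancer line, grown orthotopically in PDGFRb-TK mice or in controls. PDGFRb-TK mice carry a viral thymidine kinase (TK) transgene under the control of Pdgfrb, a receptor gene of pericytes, and ganciclovir (GCV) kills dividing cells that make the kinase. Pdgfrb is also active in other stromal cells, so pericytes are the intended target and need not be the only one. Every group received GCV. The 9 arrays were 3 TK/anti-Ang2 tumours (PDGFRb-TK mice given an antibody against Ang2, angiopoietin-2), 3 TK/IgG tumours (PDGFRb-TK mice given control IgG) and 3 WT/IgG tumours (titled wild type, given control IgG). The 4 arrays were 1 tumour each of early ablation, early control, late ablation and late control. A transgene field reads positive on all samples, wild type included, and the genotype field of both ablation controls reads PDGFRb-TK while their description says wild type, so groups were taken from titles. The labels do not say that replicates were separate animals, so a p-value here reflects only how far these samples scatter, and that scatter may be technical.

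Type I interferons (interferon-alpha and interferon-beta) bind the receptor IFNAR, whose kinases JAK1 and TYK2 activate the transcription factor complex ISGF3. ISGF3 contains STAT2 and IRF9 and binds the interferon-stimulated response element (ISRE) in front of antiviral genes. Interferon-gamma, made mainly by T and natural killer (NK) cells, acts through a different receptor and the gamma-activated site (GAS), and it induces IRF1, immunity GTPases and the machinery of antigen presentation. Many genes respond to both, so the 2 classes are not exclusive. In tumours, either programme can be run by cancer cells, immune cells or vessels, and in bulk tissue fewer cells of a type and less RNA per cell cannot be told apart.

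Promoter windows of 300 bases (250 before to 50 after the gene start) from RefSeq, mouse build GRCm38.p6, were matched for 20 of 28 type I and 8 of 9 interferon-gamma targets. They were searched for the ISRE core, GAAA and GAAA separated by any 2 bases (TTTC and TTTC on the other strand), and for the GAS core TTCNNNGAA, which reads the same on both strands. The ISRE core was present in 11 of the 20 type I targets (55%) and 4 of the 8 interferon-gamma targets (50%), against 3.99% of 27025 genes. The GAS core was present in 4 of 20 (20%) and 3 of 8 (37.5%), against 9.55% of the genes. A match is a description of these letters and not a shown binding site.

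Of the members whose window held the core of their own class, the 3 type I and 3 interferon-gamma targets with the highest mean signal are shown, with capitals marking every ISRE and GAS core and overlapping cores run together. Bst2 (chr8:71537423-71537722, minus strand) has 2 overlapping ISRE cores starting at -130 and -124 relative to the gene start. A GAS core starting at -136 overlaps only the ISRE core at -130. Isg15 (chr4:156200769-156201068, minus strand) has 3 overlapping ISRE cores starting at -78, -72 and -66. Ifit3 (chr19:34583279-34583578, plus strand) has 2 separate ISRE cores, starting at -156 and -122. The windows of the 3 interferon-gamma targets are on the plus strand. Irf1 (chr11:53769764-53770063) has a GAS core at -90 and Psmb8 (chr17:34197945-34198244) one at -97. Igtp (chr11:58199306-58199605) has a GAS core at -45 followed closely by an ISRE core at -34.
Bst2: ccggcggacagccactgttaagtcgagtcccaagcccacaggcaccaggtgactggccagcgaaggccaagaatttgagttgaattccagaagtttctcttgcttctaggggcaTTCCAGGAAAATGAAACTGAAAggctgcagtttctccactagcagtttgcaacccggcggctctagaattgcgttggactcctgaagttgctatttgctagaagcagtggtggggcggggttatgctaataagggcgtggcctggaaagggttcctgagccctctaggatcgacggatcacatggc
Isg15: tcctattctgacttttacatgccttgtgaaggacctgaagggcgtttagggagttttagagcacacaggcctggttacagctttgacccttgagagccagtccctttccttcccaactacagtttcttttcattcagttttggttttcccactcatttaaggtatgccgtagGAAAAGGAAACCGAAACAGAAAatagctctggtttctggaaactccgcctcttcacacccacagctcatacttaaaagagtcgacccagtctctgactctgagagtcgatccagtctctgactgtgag
Ifit3: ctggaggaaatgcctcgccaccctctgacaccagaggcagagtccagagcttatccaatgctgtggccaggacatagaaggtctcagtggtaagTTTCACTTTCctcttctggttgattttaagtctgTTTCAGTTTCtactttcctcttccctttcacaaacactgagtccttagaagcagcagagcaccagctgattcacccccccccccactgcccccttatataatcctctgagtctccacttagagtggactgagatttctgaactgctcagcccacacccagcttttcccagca
Irf1: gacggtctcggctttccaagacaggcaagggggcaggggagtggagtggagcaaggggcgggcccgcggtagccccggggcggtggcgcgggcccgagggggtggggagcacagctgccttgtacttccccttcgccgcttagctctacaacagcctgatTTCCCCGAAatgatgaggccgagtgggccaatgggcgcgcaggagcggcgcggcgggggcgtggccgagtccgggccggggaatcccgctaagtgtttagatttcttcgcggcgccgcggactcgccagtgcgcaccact
Psmb8: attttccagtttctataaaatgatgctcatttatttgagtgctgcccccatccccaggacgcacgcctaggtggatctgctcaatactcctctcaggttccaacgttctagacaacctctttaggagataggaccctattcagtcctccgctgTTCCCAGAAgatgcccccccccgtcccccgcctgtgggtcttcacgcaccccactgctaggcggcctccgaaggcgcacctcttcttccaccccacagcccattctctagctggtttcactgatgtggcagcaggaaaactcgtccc
Igtp: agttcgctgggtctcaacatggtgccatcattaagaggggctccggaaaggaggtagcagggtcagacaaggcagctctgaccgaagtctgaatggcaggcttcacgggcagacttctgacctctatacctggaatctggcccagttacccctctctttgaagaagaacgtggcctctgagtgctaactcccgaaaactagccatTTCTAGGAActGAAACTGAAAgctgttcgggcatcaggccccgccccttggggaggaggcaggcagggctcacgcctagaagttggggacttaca

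Between 40.6% and 43.2% of probes were detected on the 9 arrays, and limma tested 11057 genes. TK/anti-Ang2 2 stood apart, with a median correlation of 0.931 with the other arrays against 0.968 to 0.977 for the rest. It was the highest array for 3 of 3 tested keratinocyte markers (median deviation from the mean of the 9 arrays 4.94), 4 of 4 adipocyte markers (3.73), 6 of 7 mast cell markers (2.94) and 8 of 11 fibroblast markers (0.997). The tested ones were 3 of 10 listed keratinocyte and 4 of 8 listed adipocyte markers. Dsg1a, Krt25, Krt27 and Krt71 (keratinocyte) and Fabp4 and Plin1 (adipocyte) were detected on no array. The part of these cells in the values of TK/anti-Ang2 tumours was not tested. No gene passed an adjusted p of 0.05 in any of the 3 comparisons of the groups, while 325, 369 and 817 genes had an unadjusted p below 0.05 in TK/IgG against WT/IgG, TK/anti-Ang2 against TK/IgG and TK/anti-Ang2 against WT/IgG. Of 14 carcinoma markers 13 were tested, and Epcam was detected on no array. The number of arrays limits the precision.

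On the 9 arrays 29 of the 32 members were tested, 21 type I and 8 interferon-gamma targets, because testing needed a probe detected on at least 3 arrays. Ifit1, an RNA-binding antiviral protein, Iigp1, an immunity-related GTPase, Trim30a and Xaf1 were detected on no array. Ifih1 (the double-stranded RNA sensor MDA5) and Oas3 (an oligoadenylate synthetase) were detected on 2 arrays and Mx1 (an antiviral dynamin-like GTPase) on 1, so they were not tested. Ifi44 was not analysed here. Of the tested members, Oas1a was detected on 6 arrays, Rtp4 on 8 and the others on 9.

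The members differed far more between arrays of the same group than most genes did. The median residual SD (spread within groups, in log2 units, where a difference of 1 is 2-fold) was 0.67 for type I targets, 0.54 for interferon-gamma targets and 0.26 for all genes. Oas2 (1.01), Irf7 (1.01) and Cmpk2 (0.98) had the largest residual SDs of the members, each above that of more than 97% of the genes, and Irf1 (0.25) had the smallest. A median of 18.1% of a type I target's variance and 6.25% of an interferon-gamma target's variance lay between groups, against 21.2% over all genes.

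**Figure D1:**
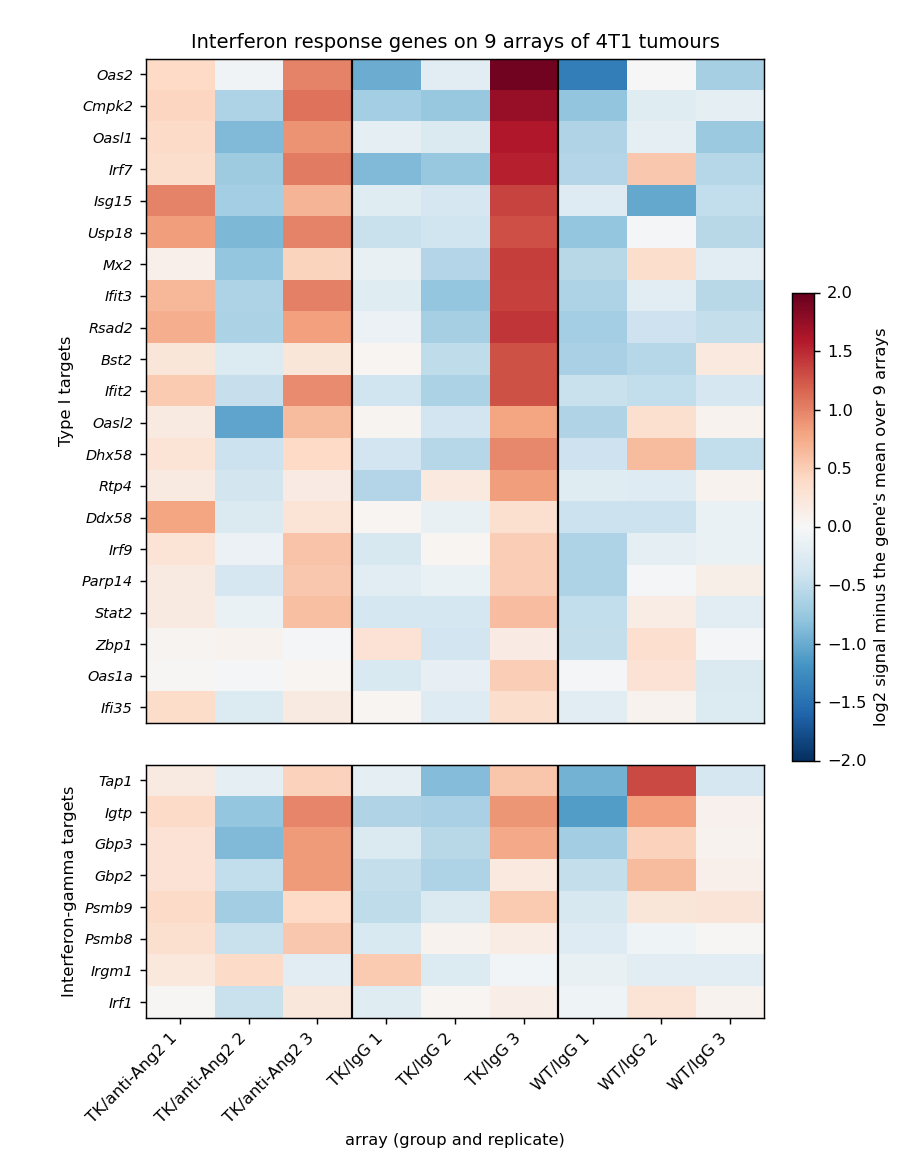
Log2 signal of the 29 tested members (rows) on the 9 arrays (columns, grouped as TK/anti-Ang2, TK/IgG and WT/IgG and separated by black lines), shown as the deviation from each gene's mean over the 9 arrays. TK/IgG 3 is the highest array for 16 of the 21 type I targets, with a median deviation of 1.27, and TK/anti-Ang2 1 and 3 follow with medians of 0.36 and 0.60.

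Among the secreted and cytoplasmic antiviral effectors, Isg15, a ubiquitin-like protein that is attached to other proteins, had log2 signals of 10.56, 8.88 and 10.24 in the TK/anti-Ang2 tumours, 9.32, 9.22 and 10.91 in the TK/IgG tumours, and 9.31, 8.54 and 9.08 in the WT/IgG tumours. TK/anti-Ang2 1 and 3 and TK/IgG 3 were clearly above every WT/IgG array. TK/IgG 1 was only just above WT/IgG 1, and TK/anti-Ang2 2 lay between WT/IgG arrays. Oas2, which makes the oligoadenylates that activate RNase L, had 8.21, 7.75 and 8.81 in the TK/anti-Ang2 tumours, 6.82, 7.59 and 9.75 in the TK/IgG tumours, and 6.43, 7.83 and 7.16 in the WT/IgG tumours. Its highest array was TK/IgG 3 and its lowest was WT/IgG 1, and all 3 groups overlapped. Oasl1, a related protein known in mice to restrain translation of Irf7, had 8.15, 6.88 and 8.66 in the TK/anti-Ang2 tumours, 7.58, 7.48 and 9.37 in the TK/IgG tumours, and 7.16, 7.58 and 7.02 in the WT/IgG tumours. Again TK/IgG 3 was highest, with TK/anti-Ang2 3 next and TK/anti-Ang2 2 lowest.

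Rsad2 (viperin), an enzyme that makes a chain-terminating nucleotide against viral polymerases, had log2 signals of 9.18, 7.82 and 9.28 in the TK/anti-Ang2 tumours, 8.33, 7.79 and 9.89 in the TK/IgG tumours, and 7.77, 8.04 and 7.98 in the WT/IgG tumours. Cmpk2, a mitochondrial nucleotide kinase whose gene is the next one to Rsad2 on chromosome 12, had 8.07, 7.01 and 8.73 in the TK/anti-Ang2 tumours, 6.95, 6.88 and 9.38 in the TK/IgG tumours, and 6.85, 7.40 and 7.45 in the WT/IgG tumours. Both genes were highest on TK/IgG 3 and lowest on WT/IgG 1. Bst2 (tetherin), which holds budding virus at the membrane, had 9.90, 9.39 and 9.89 in the TK/anti-Ang2 tumours, 9.69, 9.14 and 10.93 in the TK/IgG tumours, and 9.01, 9.09 and 9.86 in the WT/IgG tumours. TK/IgG 3 alone was clearly above the rest, and WT/IgG 3 reached the TK/anti-Ang2 values.

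The RNA-binding proteins Ifit2 and Ifit3 are neighbours on chromosome 19. Ifit2 had log2 signals of 8.57, 7.59 and 8.997 in the TK/anti-Ang2 tumours, 7.64, 7.41 and 9.32 in the TK/IgG tumours, and 7.60, 7.55 and 7.71 in the WT/IgG tumours, and Ifit3 had 9.60, 8.32 and 9.93 in the TK/anti-Ang2 tumours, 8.68, 8.15 and 10.29 in the TK/IgG tumours, and 8.31, 8.69 and 8.37 in the WT/IgG tumours. In both, TK/IgG 3, TK/anti-Ang2 3 and TK/anti-Ang2 1 were the 3 highest arrays, while TK/IgG 2 was the lowest. Mx2, an antiviral dynamin-like GTPase, had 6.56, 5.69 and 6.90 in the TK/anti-Ang2 tumours, 6.31, 5.87 and 7.84 in the TK/IgG tumours, and 5.90, 6.82 and 6.25 in the WT/IgG tumours. Here TK/IgG 3 was highest, TK/anti-Ang2 2 was lowest, and WT/IgG 2 came close to TK/anti-Ang2 3. The remaining effectors, Oas1a, Oasl2 (an OAS-like protein), Zbp1 (a sensor of Z-form nucleic acids), Rtp4, Ifi35 and Parp14 (an ADP-ribosyltransferase), spanned between 0.63 (Ifi35) and 1.85 (Oasl2) log2 units over the 9 arrays.

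Among the signal transducers, Irf9, the DNA-binding subunit of ISGF3, had log2 signals of 9.46, 9.08 and 9.77 in the TK/anti-Ang2 tumours, 8.88, 9.23 and 9.68 in the TK/IgG tumours, and 8.57, 9.01 and 9.07 in the WT/IgG tumours. All 3 TK/anti-Ang2 arrays lay above all 3 WT/IgG arrays with TK/anti-Ang2 2 only just above WT/IgG 3. Stat2, its partner in ISGF3, had 7.88, 7.56 and 8.30 in the TK/anti-Ang2 tumours, 7.35, 7.35 and 8.31 in the TK/IgG tumours, and 7.20, 7.85 and 7.49 in the WT/IgG tumours. Its 2 highest arrays were TK/IgG 3 and TK/anti-Ang2 3, and WT/IgG 2 came close to TK/anti-Ang2 1. Irf7, which drives interferon-alpha genes, had 7.56, 6.49 and 8.24 in the TK/anti-Ang2 tumours, 6.32, 6.44 and 8.75 in the TK/IgG tumours, and 6.61, 7.74 and 6.63 in the WT/IgG tumours. Its 3 highest arrays came from 3 different groups.

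Usp18, which strips ISG15 from proteins and damps signalling at IFNAR, had log2 signals of 10.71, 8.98 and 10.88 in the TK/anti-Ang2 tumours, 9.43, 9.48 and 11.16 in the TK/IgG tumours, and 9.10, 9.84 and 9.33 in the WT/IgG tumours. TK/IgG 3 and TK/anti-Ang2 3 and 1 were high, and TK/anti-Ang2 2 was the lowest of the 9. Ddx58, the cytoplasmic RNA sensor RIG-I, had 7.48, 6.41 and 6.97 in the TK/anti-Ang2 tumours, 6.73, 6.54 and 7.01 in the TK/IgG tumours, and 6.27, 6.27 and 6.56 in the WT/IgG tumours. TK/anti-Ang2 1 was highest here and TK/anti-Ang2 2 lay between the WT/IgG arrays. Dhx58 (LGP2), which modulates RIG-I and MDA5, spanned 1.53 log2 units, with TK/IgG 3 highest and TK/IgG 2 lowest.

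Among the interferon-gamma targets, Gbp2, a guanylate-binding GTPase that attacks the vacuoles of intracellular pathogens, had log2 signals of 11.59, 10.81 and 12.16 in the TK/anti-Ang2 tumours, 10.84, 10.69 and 11.50 in the TK/IgG tumours, and 10.83, 11.94 and 11.42 in the WT/IgG tumours. TK/anti-Ang2 3 and WT/IgG 2 were highest, and the low arrays came from all 3 groups. Igtp, an immunity-related GTPase, had 9.94, 8.77 and 10.54 in the TK/anti-Ang2 tumours, 8.95, 8.90 and 10.43 in the TK/IgG tumours, and 8.43, 10.37 and 9.65 in the WT/IgG tumours. One array of each group reached about the same high level. Irgm1, a regulatory GTPase of the same family, had 13.01, 13.18 and 12.58 in the TK/anti-Ang2 tumours, 13.32, 12.52 and 12.73 in the TK/IgG tumours, and 12.65, 12.57 and 12.58 in the WT/IgG tumours, with TK/IgG 1 highest and the WT/IgG arrays close together.

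Tap1, which pumps peptides to MHC class I, lies between Psmb9 and Psmb8, both catalytic subunits of the immunoproteasome, on chromosome 17. Tap1 had log2 signals of 8.15, 7.78 and 8.43 in the TK/anti-Ang2 tumours, 7.78, 7.11 and 8.52 in the TK/IgG tumours, and 7.03, 9.29 and 7.63 in the WT/IgG tumours. Psmb8 had 12.39, 11.62 and 12.61 in the TK/anti-Ang2 tumours, 11.76, 12.13 and 12.22 in the TK/IgG tumours, and 11.80, 11.98 and 12.09 in the WT/IgG tumours, and Psmb9 had 7.47, 6.39 and 7.48 in the TK/anti-Ang2 tumours, 6.58, 6.81 and 7.62 in the TK/IgG tumours, and 6.77, 7.33 and 7.35 in the WT/IgG tumours. The 3 neighbours peaked on different arrays, Tap1 on WT/IgG 2, Psmb8 on TK/anti-Ang2 3 and Psmb9 on TK/IgG 3. Irf1, a transcription factor induced early by interferon-gamma, had 12.63, 12.17 and 12.83 in the TK/anti-Ang2 tumours, 12.36, 12.65 and 12.75 in the TK/IgG tumours, and 12.52, 12.88 and 12.68 in the WT/IgG tumours. Its arrays lay within 0.71 log2 units, and WT/IgG 2 was the highest. Gbp3, a second guanylate-binding GTPase, spanned 1.73 log2 units, with TK/anti-Ang2 3 highest and TK/anti-Ang2 2 lowest.

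**Figure D2:**
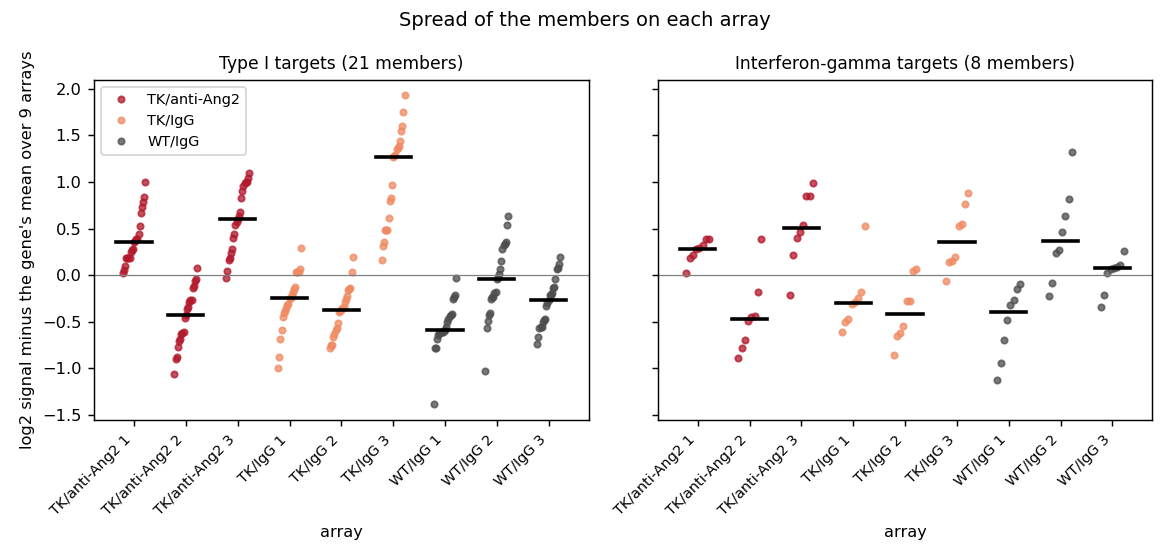
Deviation of each tested member (points) from its mean over the 9 arrays, in log2 units, by array, with type I targets on the left and interferon-gamma targets on the right; black bars are medians. The type I medians are 0.36, -0.42 and 0.60 on the TK/anti-Ang2 arrays, -0.24, -0.38 and 1.27 on the TK/IgG arrays and -0.59, -0.04 and -0.27 on the WT/IgG arrays.

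Array by array, the type I targets separated tumours of the same group. TK/IgG 3 was above all 3 WT/IgG arrays for 20 of 21 type I targets, TK/anti-Ang2 3 for 18 and TK/anti-Ang2 1 for 15, where 22.8%, 23.3% and 25.6% of all genes were. The other 3 arrays of PDGFRb-TK hosts were above all WT/IgG arrays for 1 (TK/anti-Ang2 2), 4 (TK/IgG 1) and 2 (TK/IgG 2) of the 21, where 27.5%, 24.1% and 24.4% of all genes were. TK/IgG 3 was the highest of the 9 arrays for 16 of 21 type I targets and for 8.64% of all genes. The same 3 arrays were above all WT/IgG arrays for 5 (TK/IgG 3), 5 (TK/anti-Ang2 3) and 3 (TK/anti-Ang2 1) of the 8 interferon-gamma targets. TK/anti-Ang2 3 was the highest array for 4 of these 8 (8.24% of all genes) and WT/IgG 2 for 2 (16.6% of all genes). The interferon-gamma medians by array were 0.28, -0.47 and 0.50 in TK/anti-Ang2, -0.30, -0.42 and 0.36 in TK/IgG and -0.40, 0.37 and 0.07 in WT/IgG tumours.

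Markers of T and NK cells, the main makers of interferon-gamma, were high on some of the same arrays. Of 18 listed markers 10 were tested, and 6 (Cd4, Cd5, Cd8a, Gzmb, Klrb1c and Ncr1) were detected on no array. TK/IgG 3 was the highest array for 7 of the 10. Their median deviations were 0.06, 0.42 and 0.58 on the TK/anti-Ang2 arrays, -0.31, -0.61 and 0.93 on the TK/IgG arrays and -0.80, -0.17 and 0.12 on the WT/IgG arrays. Their summed signal ranged from 4960 to 6720 in TK/anti-Ang2, 4140 to 9920 in TK/IgG and 3760 to 4140 in WT/IgG tumours. The highest sum was on TK/IgG 1, although that array was the highest for only 1 of the 10 markers and their median deviation there was -0.31. Of the plasmacytoid dendritic cell markers, a cell type known for type I interferon, 5 of 10 were tested, Ccr9 and Tlr9 were detected on no array, and the sums were 4680 to 7090, 5910 to 6650 and 7300 to 7520 in the TK/anti-Ang2, TK/IgG and WT/IgG tumours. Their median deviations were -0.34, 0.69 and -0.34 on the TK/anti-Ang2 arrays, -0.14, -0.16 and 0.51 on the TK/IgG arrays and -0.0068, -0.74 and -0.0083 on the WT/IgG arrays, and TK/IgG 3 was the highest array for 2 of the 5. Other markers were high on TK/IgG 3 too. It was the highest array for 6 of 12 endothelial (median deviation 0.64) and 4 of 11 macrophage markers (0.27). Its median deviation was 0.62 for dendritic cell and 1.21 for keratinocyte markers, but -0.42 for fibroblast and -0.46 for adipocyte markers. The part of all these cells in the interferon signal was not tested.

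The TK/IgG against WT/IgG comparison sets PDGFRb-TK hosts against hosts titled wild type, both given GCV and control IgG. Of 9 tested pericyte markers 7 were below 0 (median -0.29), and none passed the test. All 21 tested type I targets had a difference above 0, against 46.4% of all genes, and none passed the test. Their median difference was 0.38 and ran from 0.02 (Oas1a) to 0.91 (Oas2), against -0.02 over all genes. The 8 interferon-gamma targets had a median of -0.08, with 3 above 0. With limma, 0 members passed an adjusted p of 0.05 (0% of all genes) and 0 had an unadjusted p below 0.05 (2.94% of all genes). In no member did the TK/IgG and WT/IgG arrays fail to overlap, where 3.19% of genes were wholly higher and 5.07% wholly lower.

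Of the type I targets the 6 largest TK/IgG minus WT/IgG differences were 0.91 (SE 0.68) for Oas2, 0.89 (SE 0.56) for Oasl1, 0.85 (SE 0.54) for Isg15, 0.74 (SE 0.54) for Rsad2, 0.60 (SE 0.43) for Bst2 and 0.60 (SE 0.59) for Usp18, in log2 units. Of the interferon-gamma targets the 4 largest were -0.39 (SE 0.39) for Gbp2, 0.26 (SE 0.23) for Irgm1, -0.18 (SE 0.55) for Tap1 and -0.15 (SE 0.36) for Psmb9. The adjusted p was 0.999 in limma for each of these 10. Most of the type I difference came with 1 tumour. Without TK/IgG 3 the type I median was 0.0016 with 11 of 21 above 0, and the differences became 0.07 for Oas2, 0.27 for Oasl1, 0.30 for Isg15, 0.13 for Rsad2, 0.10 for Bst2 and 0.03 for Usp18. The median was 0.24 without WT/IgG 1 and 0.60 without TK/IgG 1. For interferon-gamma targets it was -0.41 without TK/IgG 3, -0.32 without WT/IgG 1, -0.01 without WT/IgG 3, 0.04 without TK/IgG 1, 0.10 without TK/IgG 2 and 0.17 without WT/IgG 2, so its sign depended on the array left out. Of the named interferon-gamma targets, Tap1 ranged from -0.66 without WT/IgG 1 to 0.47 without WT/IgG 2, and Gbp2 from -0.67 without WT/IgG 1 to -0.11 without WT/IgG 2.

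Other cell markers also differed in this comparison. All 10 tested T and NK markers (median 0.27) and all 10 tested neutrophil markers (median 0.36) had differences above 0, and all 11 tested fibroblast markers were below 0 (median -0.86). None of these markers passed the test, and their part in the type I values was not tested.

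The TK/anti-Ang2 against TK/IgG comparison asks what blocking Ang2 adds, and its type I median was nearer 0. Of 21 type I targets 16 were above 0 (46.9% of all genes), with a median of 0.08, and of 8 interferon-gamma targets 7 were above 0, with a median of 0.14, against -0.02 over all genes. No member passed the test in limma (0% of genes), none had an unadjusted p below 0.05 (3.34% of genes), and the arrays of the groups overlapped for every member, where 2.61% of genes were wholly higher and 4.33% wholly lower. The 6 largest type I differences were -0.29 (SE 0.51) for Mx2, 0.26 (SE 0.50) for Ifit2, 0.26 (SE 0.68) for Irf7, 0.24 (SE 0.31) for Stat2, -0.24 (SE 0.56) for Oasl1 and 0.24 (SE 0.56) for Ifit3. The 4 largest of the interferon-gamma targets were 0.51 (SE 0.39) for Gbp2, 0.33 (SE 0.62) for Igtp, 0.32 (SE 0.55) for Tap1 and 0.17 (SE 0.26) for Psmb8. The adjusted p was 0.992 for each of the 10 in limma. All but Stat2 and Gbp2 of these 10 had the other sign without 1 array.

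The sign of the type I median depended on single arrays. It was -0.13 without TK/IgG 1, -0.12 without TK/IgG 2, -0.10 without TK/anti-Ang2 3 and -0.02 without TK/anti-Ang2 1. It was 0.38 without TK/IgG 3, with 21 of 21 above 0, and 0.35 without TK/anti-Ang2 2, the array that stood apart. The interferon-gamma median was -0.05 without TK/anti-Ang2 3, 0.05 without TK/anti-Ang2 1, 0.06 without TK/IgG 1, 0.0019 without TK/IgG 2, 0.46 without TK/IgG 3 and 0.48 without TK/anti-Ang2 2. Gbp2 ranged from 0.19 without TK/anti-Ang2 3 to 0.87 without TK/anti-Ang2 2. In this comparison 11 of 12 endothelial markers were below 0 (median -0.66) and 7 of 10 T and NK markers above 0 (median 0.14), none passing the test, and their part in the members' values was not tested.

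The TK/anti-Ang2 against WT/IgG comparison sets both interventions together against neither, and it shares its arrays with the comparisons above. Of 21 type I targets 20 were above 0 (44.6% of all genes), with a median of 0.44 and a range of -0.0063 (Oasl2) to 1.12 (Oas2). Of 8 interferon-gamma targets 6 were above 0, with a median of 0.14, and all genes had a median of -0.04. No member passed the test in limma (0% of genes). None had an unadjusted p below 0.05, against 7.39% of genes, and the smallest was 0.0524 for Ddx58. When 1 array was left out, 0 to 7 of 21 type I targets were below 0.05 (7 without TK/anti-Ang2 2), where 463 to 1523 of 11057 genes were. With the replicate number as a block 2 of 21 were, where 871 genes were. The main fit had 817 genes. The gene count without TK/anti-Ang2 2 alone is not given here, so no excess of type I targets is read from the 7. Irf9 was the 1 member whose arrays did not overlap, where 4.83% of genes were wholly higher and 7.74% wholly lower.

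The 6 largest type I differences in that comparison were 1.12 (SE 0.68) for Oas2, 0.92 (SE 0.54) for Isg15, 0.83 (SE 0.54) for Rsad2, 0.82 (SE 0.56) for Ifit3, 0.77 (SE 0.59) for Usp18 and 0.76 (SE 0.50) for Ifit2, with limma adjusted p between 0.699 and 0.740. Irf9 differed by 0.55 (SE 0.26) and Ddx58 by 0.59 (SE 0.26), both with an adjusted p of 0.673. The 4 largest of the interferon-gamma targets were 0.32 (SE 0.23) for Irgm1, 0.27 (SE 0.62) for Igtp, 0.25 (SE 0.26) for Psmb8 and -0.15 (SE 0.20) for Irf1. Without TK/anti-Ang2 2 the differences were 1.43 for Isg15, 1.30 for Rsad2, 1.31 for Ifit3, 1.37 for Usp18 and 1.16 for Ifit2. Without TK/anti-Ang2 1 the difference was 0.59 for Isg15, and without TK/anti-Ang2 3 it was 0.50 for Ifit3, 0.42 for Usp18 and 0.46 for Ifit2. Irf9 ranged from 0.39 without TK/anti-Ang2 3 to 0.73 without TK/anti-Ang2 2. The type I median was 0.73 without TK/anti-Ang2 2, with 21 of 21 above 0, and 0.26 without TK/anti-Ang2 3 or without WT/IgG 1. The interferon-gamma median turned to -0.21 without WT/IgG 1 and -0.16 without TK/anti-Ang2 3, and was 0.40 without TK/anti-Ang2 2 and 0.35 without WT/IgG 2. In this comparison 9 of 10 T and NK markers were above 0 (median 0.62) and 12 of 12 endothelial markers were below 0 (median -0.62). None of these passed the test, and their part in the members' values was not tested.

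**Figure D3:**
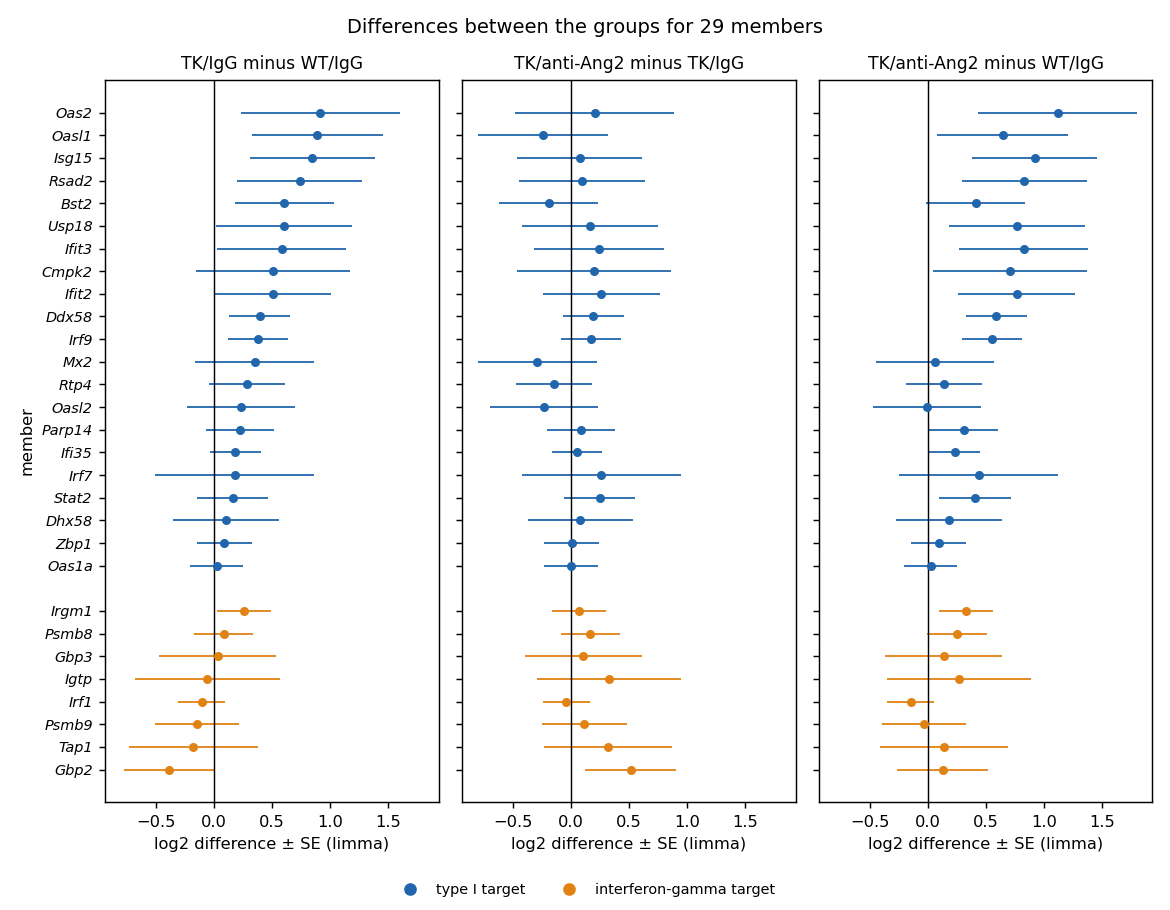
Log2 difference and standard error (limma, 3 arrays per group) of each of the 29 tested members in the 3 comparisons, type I targets in blue above and interferon-gamma targets in orange below. The type I medians are 0.38, 0.08 and 0.44 and the interferon-gamma medians are -0.08, 0.14 and 0.14.

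**Figure D4:**
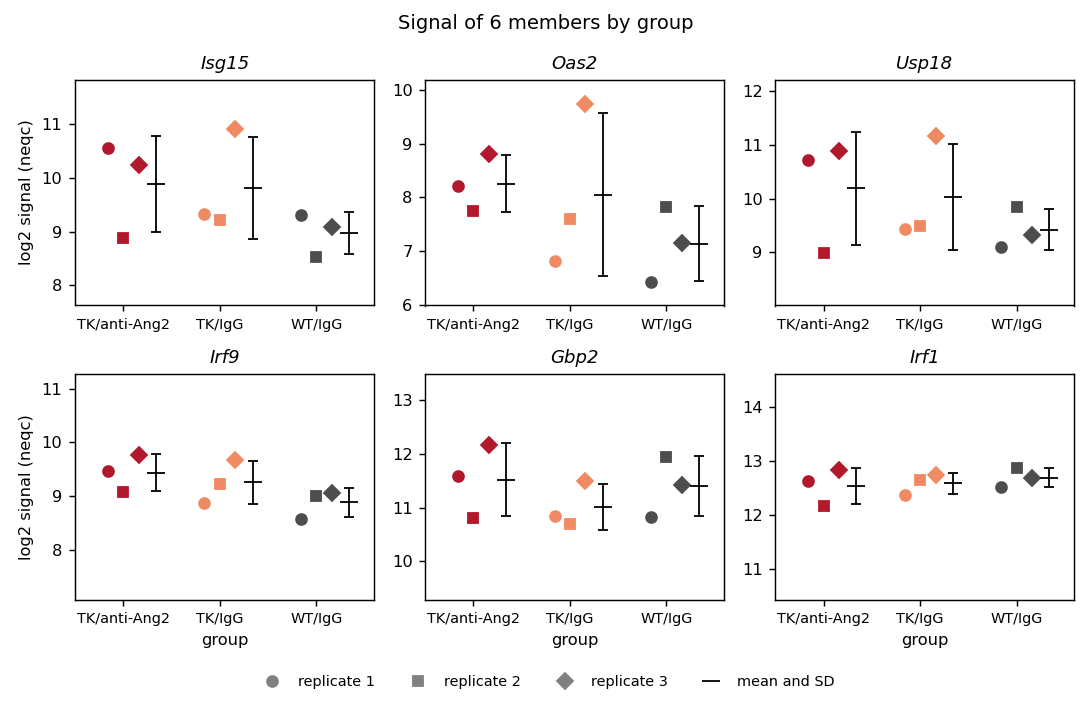
Log2 signal (neqc) of 6 members on each array, by group, with the mean and SD of 3 arrays; all panels span the same height in log2 units. Isg15, Oas2 and Usp18 have a single high TK/IgG array (replicate 3), Irf9 has TK/anti-Ang2 arrays above all WT/IgG arrays, and Gbp2 and Irf1 overlap in all groups.

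In the plot of 6 members by group, the spread within groups is wide. Isg15 averaged 9.89 ± 0.89 in TK/anti-Ang2, 9.82 ± 0.95 in TK/IgG and 8.97 ± 0.40 in WT/IgG tumours (SD, n = 3 each). Oas2 averaged 8.26 ± 0.53, 8.06 ± 1.52 and 7.14 ± 0.70 in the TK/anti-Ang2, TK/IgG and WT/IgG tumours. These SDs are of the order of the differences from WT/IgG. They are larger than the differences between TK/anti-Ang2 and TK/IgG, 0.07 for Isg15 and 0.20 for Oas2.

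Where a member had several probes detected on at least 3 arrays, they did not always point the same way. Of 13 such members, a probe of opposite sign was found for 3 in TK/IgG against WT/IgG (Gbp2, Irf1 and Irgm1). It was found for 6 in TK/anti-Ang2 against TK/IgG (Ifit2, Irf1, Oasl1, Oasl2, Parp14 and Psmb8) and for 3 in TK/anti-Ang2 against WT/IgG (Irf1, Oasl2 and Parp14). Probes detected on fewer than 3 arrays were not counted. Among them, 1 probe each of Ddx58 (-0.21) and Zbp1 (-0.14) had the opposite sign in TK/IgG against WT/IgG. The values given here are those of the probe with the highest mean signal.

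Few interferon genes were detected. Of 18 listed ligands 17 were on the platform, and 6 were detected on at least 1 array, Ifna1 and Ifnab on 9, Ifne on 7, Ifnz on 4, Ifng on 2 and Ifna12 on 1. Ifnb1, the gene of interferon-beta, was detected on no array. Ifnz, a type I interferon of mice, had log2 signals of 5.14, 5.16 and 4.63 in the TK/anti-Ang2 tumours, 5.66, 5.21 and 4.96 in the TK/IgG tumours, and 4.61, 4.42 and 4.53 in the WT/IgG tumours. It was detected on 2 TK/anti-Ang2, 2 TK/IgG and 0 WT/IgG arrays, so it passed the filter only through the PDGFRb-TK hosts and was not above background in WT/IgG tumours, and no difference is given for it. Ifnz was highest on TK/IgG 1, an array with a type I target median below 0. The other tested ligands, Ifna1, Ifnab and Ifne, differed by -0.46 (SE 0.24), -0.0065 (SE 0.15) and 0.10 (SE 0.22) in TK/IgG against WT/IgG. The interferon-alpha genes are closely similar to each other, so a probe for 1 of them may read several.

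Of 21 genes for receptors and signalling, 19 were tested and none passed the test in any comparison. Ifngr2, a chain of the interferon-gamma receptor, had log2 signals of 10.83, 11.58 and 9.55 in the TK/anti-Ang2 tumours, 12.11, 9.70 and 10.11 in the TK/IgG tumours, and 9.96, 9.73 and 9.62 in the WT/IgG tumours. TK/IgG 1 and TK/anti-Ang2 1 and 2 were high and the others lay close together. It differed by 0.87 (SE 0.65) in TK/IgG against WT/IgG. Ifngr1, the other chain, differed by 0.28 (SE 0.21) and Ifnar2, a chain of IFNAR, by 0.01 (SE 0.27). Ifnar1 was not analysed here. Ciita, the master regulator of MHC class II, differed by -1.20 (SE 0.64) and Socs3, a feedback inhibitor of JAK signalling, by 0.34 (SE 0.24). Socs3 differed by 0.77 (SE 0.24) and Jak1 by -0.68 (SE 0.22) in TK/anti-Ang2 against WT/IgG, with a limma adjusted p of 0.672 for both. There 1 of the 19 genes was wholly higher (Socs3) and 2 were wholly lower (Jak1 and Irf8). Of all genes, 4.83% were wholly higher and 7.74% wholly lower.

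The other listed targets were no clearer. Of 36 further type I targets 27 were tested, and 19 were above 0 in TK/IgG against WT/IgG (median 0.10), 17 in TK/anti-Ang2 against TK/IgG (median 0.08) and 23 in TK/anti-Ang2 against WT/IgG (median 0.20). The largest were Slfn1, a regulator of T cell quiescence, at 0.55 (SE 0.26) in TK/IgG against WT/IgG and Ifi27l2a at 0.98 (SE 0.53) in TK/anti-Ang2 against WT/IgG. Ly6e and Pml, which organises nuclear bodies, followed in TK/IgG against WT/IgG at 0.42 (SE 0.40) and 0.35 (SE 0.25). Of 24 further interferon-gamma targets 21 were tested, with medians of 0.12, 0.04 and 0.12 in the same order of comparisons. Cxcl9, a chemokine that draws T cells, had 8.94, 8.19 and 9.37 in the TK/anti-Ang2 tumours, 7.07, 7.08 and 10.02 in the TK/IgG tumours, and 7.25, 9.70 and 9.75 in the WT/IgG tumours. It was highest on TK/IgG 3 and lowest on TK/IgG 1 and 2, with 1 low array in WT/IgG as well. Of 15 nucleic acid sensing genes 13 were tested. Zc3hav1, which binds CpG-rich viral RNA, was detected on 1 TK/IgG, 3 TK/anti-Ang2 and 3 WT/IgG arrays. It was not above background on the other TK/IgG arrays, so no difference is given for it. Of the rest, Tlr7 had the largest difference in TK/IgG against WT/IgG, 0.53 (SE 0.36). No gene of these lists passed the test.

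The early and late ablation pairs have 1 array per group, so their differences have no replicate check and no test. In the early pair 7 of 10 pericyte markers were above 0 (median 0.05, largest 3.23), with a summed signal of 6097 in the ablation tumour and 4970 in its control, which goes against its label, so it is called the tumour labelled early ablation. In the late pair the sums were 3067 in the ablation tumour and 6026 in its control. On that platform 20 type I and 8 interferon-gamma targets were kept, and Ifih1, Ifit1, Iigp1, Mx1, Oas1a, Oas3, Trim30a and Xaf1 were detected on no array. In the early pair the type I median was 0.02, with 11 of 20 above 0, and the interferon-gamma median 0.11, with 6 of 8 above 0, where 48.2% of 9714 genes were. None reached a difference of 1 or -1, which 0.947% and 0.144% of genes did. In the late pair the type I median was 0.37, with 19 of 20 above 0, and the interferon-gamma median 0.34, with 8 of 8 above 0, where 50.3% of genes were. Ifit3 and Usp18 reached a difference of 1, which 0.391% of genes did, and no member reached -1, which 0.669% did.

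In the early pair Ifi35 had log2 signals of 8.05 in the tumour labelled early ablation and 8.90 in its control, a difference of -0.85. Oas2 had 7.43 in the tumour labelled early ablation and 6.87 in its control, and Rsad2 8.34 in the tumour labelled early ablation and 7.96 in its control. Bst2 had 9.81 in the tumour labelled early ablation and 9.48 in its control. The 3 antiviral genes were higher in the tumour labelled early ablation, by 0.56, 0.38 and 0.32, while Ifi35 was lower. Of the interferon-gamma targets Psmb8 had 8.22 in the tumour labelled early ablation and 9.04 in its control, a difference of -0.82, and Irgm1 12.49 in the tumour labelled early ablation and 11.73 in its control, a difference of 0.76. Irf1 differed by 0.28 and Gbp2 by -0.24, so this class was split.

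In the late pair Ifit3 had log2 signals of 9.85 in the late ablation tumour and 8.73 in its control, a difference of 1.12. Usp18 had 9.999 in the late ablation tumour and 8.98 in its control, a difference of 1.02. Isg15 had 10.28 in the late ablation tumour and 9.29 in its control, which left it just under the difference of 1. All 3 were higher in the ablation tumour. Oas2 had 8.01 in the late ablation tumour and 7.18 in its control, a difference of 0.83. Gbp3 had 10.004 in the late ablation tumour and 9.44 in its control, Igtp 10.43 in the late ablation tumour and 9.87 in its control, Tap1 8.44 in the late ablation tumour and 7.90 in its control and Irgm1 12.71 in the late ablation tumour and 12.25 in its control. These 4 interferon-gamma targets differed by 0.57, 0.55, 0.55 and 0.46. With median scaling in place of quantile normalization the late medians were 0.18 for type I targets (15 of 20 above 0) and 0.019 for interferon-gamma targets (4 of 8 above 0), and the median of all genes moved to -0.21. With the authors' processed values the late type I median was 0.62, with 19 of 20 above 0.

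**Figure D5:**
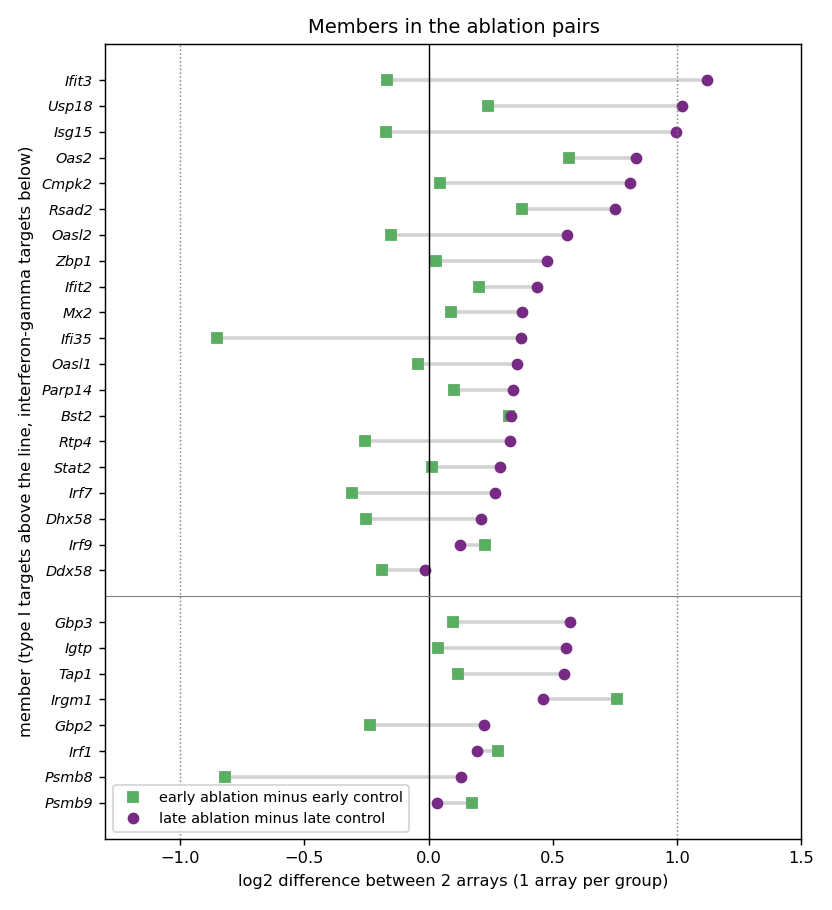
Log2 difference of each member kept on the 4 arrays, early ablation minus early control (green squares) and late ablation minus late control (purple circles), with type I targets above the line and interferon-gamma targets below; dotted lines mark differences of -1 and 1. Late differences are above 0 for 19 of 20 type I and 8 of 8 interferon-gamma targets (15 of 20 and 4 of 8 with median scaling), with Ifit3 and Usp18 past 1, and early differences lie on both sides of 0.

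Outside the members, Ifngr2 was higher in both pairs, at 9.84 in the tumour labelled early ablation and 8.22 in its control (difference 1.62) and 9.72 in the late ablation tumour and 8.49 in its control (difference 1.23). Cd74, the invariant chain of MHC class II, was lower in both, by differences of -0.77 and -0.75. Of 24 further type I targets kept, 9 were above 0 in the early pair and 17 in the late pair, Eif2ak2, the antiviral kinase PKR, by 0.72 in the late one. Of 20 further interferon-gamma targets kept, 6 were above 0 in the early pair (median -0.23) and 12 in the late pair (median 0.015). The late shift of the interferon-gamma members was thus not seen in the wider list. In the late pair all 11 fibroblast markers kept were below 0 (median -1.22), 10 of 12 carcinoma markers were above 0 (median 0.37) and 7 of 10 T and NK markers were above 0 (median 0.09). Endothelial (11 of 11, median -0.45), macrophage (9 of 9, median -0.41) and pericyte markers (8 of 10, median -0.39) were below 0 there, and mast cell (6 of 6, median 1.11) and neutrophil markers (8 of 10, median 0.52) above 0. Neutrophil (9 of 10, median 0.46) and mast cell markers (6 of 6, median 0.61) were above 0 in the early pair, and macrophage (6 of 9, median -0.69) and endothelial markers (8 of 11, median -0.16) below 0. Their part in the members' differences was not tested.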

How the data were processed

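Tumour RNA was hybridised to Illumina bead arrays of 2 platforms. Intensities and detection p-values are the authors' deposited probe values, exported from GenomeStudio per the submitters' processing notes (no version is given in the sources used here). The late control's detection column repeats its signal, so its probes were counted as detected down to the same share (42.6%) as the array with the fewest detected. In all, 6 columns matching no sample here were not used.

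The 9 arrays were background-corrected and quantile-normalized with neqc (offset 16) and the 4 arrays with normexp (offset 50) and quantile normalization, giving log2 signals computed from the deposited intensities. Probes needed a detection p-value below 0.05 on at least 3 of 9 arrays, or 1 of 4, and the probe with the highest mean stood for its gene. limma 3.58.1 in R 4.3.3 fitted all 9 arrays, with Benjamini-Hochberg adjustment at 0.05. The procedure was tested on simulated data. Members and lists were chosen with earlier results of these data known. Values are given for the 6 type I and 4 interferon-gamma targets with the largest difference per comparison, 4 of each per pair, all members being accounted for, and for the largest of the other lists. Groups came from titles. Alternatives covered background correction, scaling, filters, probe choice, array weights, the authors' processed values (floored at 16), a replicate block and leaving out each array.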

Additional observations from a re-analysis of the deposited data

Results flagged for a closer look

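For 10 of the 28 members kept on the 4 arrays the early and late pairs had differences of opposite sign, 8 of 20 type I targets (40%) and 2 of 8 interferon-gamma targets (25%), against 46.9% of 9714 genes. Each pair has 1 array per group and the difference between the pairs was not tested. The late difference minus the early difference was 1.17 for Isg15, 1.29 for Ifit3, 0.40 for Oasl1, 0.71 for Oasl2, 0.58 for Irf7, 0.46 for Dhx58, 1.22 for Ifi35 and 0.58 for Rtp4 among type I targets. It was 0.46 for Gbp2 and 0.95 for Psmb8 among interferon-gamma targets. In all 10 the late difference was above 0 and the early difference below 0. Late differences were above 0 for 19 of 20 type I and 8 of 8 interferon-gamma targets. The shared direction follows from that and is not a separate result.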

How the results depend on the processing

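With array weights 1 gene, Slc24a3, passed the test in TK/anti-Ang2 against WT/IgG (1.46, limma adjusted p 0.0404). Under median scaling the late interferon-gamma median was 0.0186, and the median of all genes moved to -0.21 in the late pair and -0.10 in both comparisons against WT/IgG. No member passed in any of 20 settings, where the smallest adjusted p was 0.996 in TK/IgG against WT/IgG, 0.594 in TK/anti-Ang2 against TK/IgG and 0.22 in TK/anti-Ang2 against WT/IgG. Leaving out 1 array gave 0 genes in each comparison (206 to 442, 263 to 1077 and 463 to 1523 at an unadjusted p below 0.05). It gave type I medians of 0.0016 to 0.60, -0.13 to 0.38 and 0.26 to 0.73, and interferon-gamma medians of -0.41 to 0.17, -0.05 to 0.48 and -0.21 to 0.40, in the same order. Other alternatives gave type I medians of 0.22 to 0.39, 0.05 to 0.23 and 0.31 to 0.61. Same-numbered replicates had correlations of -0.162 to 0.391, 3 of 9 over 0.1, and with no reference spread these cannot settle whether they pair. With the replicate block 0 genes passed in each comparison (370, 438 and 871 at an unadjusted p below 0.05, against 325, 369 and 817 without it). The type I medians stayed at 0.38, 0.08 and 0.44. At an unadjusted p below 0.05, leaving out 1 array gave up to 2, 1 and 7 of 21 type I and up to 0, 2 and 1 of 8 interferon-gamma targets, in the order TK/IgG against WT/IgG, TK/anti-Ang2 against TK/IgG and TK/anti-Ang2 against WT/IgG. The number of arrays limits all of these values. Among medians near 0, the interferon-gamma median in TK/IgG against WT/IgG was 0.0062 with array weights, and the early type I median was -0.016 with no detection filter. Of 87 tested member differences, 55 changed direction when 1 array was left out, none of them called. In TK/IgG minus WT/IgG their ranges were -0.12 to 0.29 for Zbp1, -0.20 to 0.0031 for Irf1, -0.58 to 0.39 for Igtp, -0.46 to 0.062 for Psmb9, -0.66 to 0.47 for Tap1, -0.096 to 0.86 for Ifit2, -0.043 to 1.03 for Ifit3, -0.22 to 0.18 for Oas1a, -0.089 to 0.50 for Oasl2, -0.23 to 0.75 for Mx2, -0.61 to 0.60 for Irf7, -0.16 to 0.33 for Stat2, -0.38 to 0.47 for Dhx58, -0.059 to 0.65 for Rtp4, -0.32 to 0.93 for Cmpk2, -0.37 to 0.29 for Gbp3 and -0.011 to 0.22 for Psmb8. In TK/anti-Ang2 minus TK/IgG their ranges were -0.26 to 0.62 for Isg15, -0.16 to 0.24 for Oas1a, -0.41 to 1.05 for Oas2, -0.17 to 1.05 for Irf7, -0.019 to 0.38 for Irf9, -0.35 to 0.70 for Rsad2, -0.21 to 0.56 for Dhx58, -0.18 to 0.77 for Usp18, -0.12 to 0.32 for Parp14, -0.23 to 1.02 for Cmpk2, -0.28 to 0.59 for Gbp3, -0.096 to 0.48 for Psmb9, -0.096 to 0.86 for Ifit2, -0.20 to 0.87 for Ifit3, -0.099 to 0.23 for Ifi35, -0.20 to 0.14 for Zbp1, -0.10 to 0.30 for Irgm1, -0.029 to 0.68 for Tap1, -0.62 to 0.37 for Oasl1, -0.60 to 0.25 for Oasl2, -0.69 to 0.29 for Mx2, -0.58 to 0.31 for Bst2, -0.52 to 0.19 for Rtp4, -0.19 to 0.14 for Irf1, -0.071 to 0.47 for Ddx58, -0.068 to 0.83 for Igtp and -0.035 to 0.46 for Psmb8. In TK/anti-Ang2 minus WT/IgG their ranges were -0.20 to 0.41 for Mx2, -0.37 to 0.48 for Oasl2, -0.29 to 0.037 for Irf1, -0.22 to 0.33 for Psmb9, -0.19 to 0.48 for Gbp2, -0.25 to 0.62 for Gbp3, -0.26 to 0.76 for Igtp, -0.34 to 0.79 for Tap1, -0.11 to 0.29 for Zbp1, -0.12 to 0.17 for Oas1a and -0.021 to 0.55 for Dhx58. Under the other settings 17 values changed direction. In TK/IgG minus WT/IgG these were -0.11 for Gbp3 (median scaling), -0.042 for Psmb8 (median scaling), 0.0033 for Irf1 (mean of probes) and 0.065 for Igtp (array weights). In TK/anti-Ang2 minus TK/IgG these were -0.0015 for Zbp1 (normexp background correction), -0.0035 for Zbp1 (no background correction), -0.029 for Oas1a (median scaling), -0.070 for Parp14 (mean of probes), 0.25 for Irf1 (mean of probes), -0.0088 for Oas1a (array weights), 0.012 for Oasl2 (array weights) and 0.0035 for Irf1 (array weights). In TK/anti-Ang2 minus WT/IgG these were 0.0037 for Oasl2 (no background correction), 0.15 for Oasl2 (mean of probes), 0.25 for Irf1 (mean of probes), 0.26 for Oasl2 (array weights) and 0.23 for Psmb9 (array weights). The cause of these changes was not tested.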
